A study of Saccharomyces cerevisiae with 3 samples.

Results

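The genes described here are SPO7, NEM1, PAH1, DGK1, INO1, OPI1 and CHO1 of the budding yeast Saccharomyces cerevisiae, 7 of the 6218 genes on the arrays. The set was chosen by the change in SPO7, whose ratio of Cy5 to Cy3 fell more than 16-fold when sporulating cells were returned to growth medium. The others were taken by symbol as genes of phosphatidate control or, for INO1 and CHO1, as targets downstream of it. Each was found on every array through its ORF name, in 2 adjacent spots. The arrays give NEM1 (YHR004C) and DGK1 (YOR311C) without a symbol and PAH1 (YMR165C) under the older symbol SMP2.

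The 3 groups compared hold 1 array each, all from diploid SK1 cells with sum1 deleted (JPY214), referred to as Δsum1. SUM1 encodes a repressor of mid-sporulation genes. The cells were grown to saturation in glucose medium (YPD), then overnight in acetate medium (YPA), and were washed into the sporulation medium SPM. One array holds cells after 6 hours in SPM, and the other arrays hold part of that culture, spun down and resuspended in YPD, after 20 and after 40 minutes. On every array the sample was hybridized against the same reference RNA, from wild-type SK1 diploids (NKY1551) growing in YPA. A ratio to the reference therefore compares both strain and condition, whereas a change between arrays compares Δsum1 cells with each other. No culture was kept in SPM for the added minutes and no array was repeated, so the medium, the time and the slide cannot be told apart, and no test between the groups was possible.

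Phosphatidate is the branch point from which yeast makes both storage lipids and membrane phospholipids. Nem1 and Spo7 form a membrane-bound phosphatase, with Nem1 as the catalytic and Spo7 as the regulatory subunit, which dephosphorylates and thereby activates Pah1. Pah1 converts phosphatidate to diacylglycerol, the precursor of triacylglycerol, and Dgk1 is the kinase that runs the step in reverse. Phosphatidate in the endoplasmic reticulum holds back the repressor Opi1. When it is consumed, Opi1 enters the nucleus and represses targets of the activators Ino2 and Ino4, among them INO1 and CHO1. Diploids that lack Spo7 or Nem1 have misshapen nuclei and do not sporulate.

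A few facts of the whole arrays bear on the 7 genes. SUM1 itself gave a log2 ratio of -1.76 in SPM and of -1.37 and then -1.64 in YPD, below the reference on all 3 arrays though not at the floor. The 8 mid-sporulation markers examined all exceeded the reference by 2-fold or more at 6 hours, as 21.7% of all genes did, with a median log2 ratio of 5.77. In 5 of the 8 a reference spot was at the floor there, so that this median is a lower limit. Of the 10 markers of haploid and mating cells, which diploids should lack, 6 were also above the reference by 2-fold, with a median of 1.95 and a range of 0.26 to 4.14. On transfer the median change of the 10 haploid markers was -0.24 and -0.17. Single markers ranged from -1.35 to 0.46 at 20 minutes and from -1.93 to 1.33 at 40 minutes. At each time 2 were lower by 2-fold, where 26.3% and 30.5% of all genes were. None was higher by 2-fold at 20 minutes and 1 at 40 minutes, where 19.4% and 19.6% of all genes were. In some of these markers a reference spot was under the floor at 6 hours. The part of the haploid markers in the changes below was not tested. Of the 5 early meiosis markers 4 were above the reference by 2-fold at 6 hours and all 5 were lower by 2-fold at 40 minutes. IME1 changed by -5.11 and -6.55 and HOP1 by -4.98 and -5.47, the latter with 1 spot under the floor. Of the 8 mid-sporulation markers 1 was lower and 1 higher by 2-fold at 20 minutes, and 1 lower and 3 higher at 40 minutes. DIT1 changed by 1.24 and 2.78, with reference spots under the floor on each array, and CLB1, named after its values were seen, by -1.48 and -1.98, and of the 4 markers of growing cells only CLN3 moved by 2-fold, by 2.96 and 3.57. Over the 6161 genes with a value, the typical change was slightly negative, with a median of -0.26 after 20 minutes and -0.33 after 40 minutes. Duplicate spots differed with a pooled SD of 0.23 and 0.24 for these changes. That SD says nothing of how cultures or slides vary.

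SPO7 (YAL009W), the regulatory subunit of the phosphatase, went from one of the brighter genes of the Δsum1 cells to a dim one. All signed values here are log2 of Cy5 over Cy3, with the Δsum1 sample taken as Cy5 from the channel labels and the scanner headers, although the protocol text for the labeling has the dyes swapped. Before the transfer SPO7 had a log2 ratio of -0.15 ± 0.12 (mean and SD, n = 2 spots), which became -4.22 ± 0.00 after 20 minutes in YPD and -4.53 ± 0.13 after 40 minutes. At 6 hours the level was thus within 1.11-fold of that in growing reference cells, and both arrays from YPD lie far below it. The mean background-subtracted signal of the Δsum1 sample was 35469 in SPM, then 1398 and 1012 in YPD, in scanner units. The reference signal of the same spots stayed between 33441 and 41361. Because these are whole-culture RNAs, fewer cells that express a gene and less RNA per cell cannot be told apart.

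The change in SPO7 was -4.07 ± 0.12 at 20 minutes, or 16.8-fold lower, and -4.38 ± 0.01 at 40 minutes, or 20.8-fold lower. These values chose the gene and are given as a description. A fall of at least 16-fold was seen for 0.519% of genes at 20 minutes, 0.714% at 40 minutes and 0.487%, or 30 genes, at both. SPO7 was the gene with the 28th most negative mean change of the 6161, and the 21st of the 3715 genes that lay within 2-fold of the reference at 6 hours. Just outside the 16-fold limit lies INO1, at 14.8-fold and 11.1-fold. The 2 spots of SPO7 gave -3.98 and -4.15 at 20 minutes and -4.39 and -4.37 at 40 minutes, so the first spot by itself is just short of 16-fold at 20 minutes. Most of the fall was present by 20 minutes, and the further difference in ratio to 40 minutes was -0.31 ± 0.13. Over those minutes the Cy5 level of SPO7, relative to the array median, went from -0.98 up to -0.68. Its Cy3 level went from 3.30 to 3.82.

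How far SPO7 fell depends on what a dim spot is read against. At 40 minutes both SPO7 spots, at 966 and 1057, were under the mean Cy5 signal of 1236 over the 236 buffer spots, which carry no DNA, but above 75.8% of those spots, whose median was 438. At 20 minutes the spots, at 1351 and 1445, were above the buffer mean of 1304 and above 82.6% of buffer spots. Neither time brought SPO7 under the floor of 397 or 268, below which signals were set to a fixed value.

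**Figure D1:**
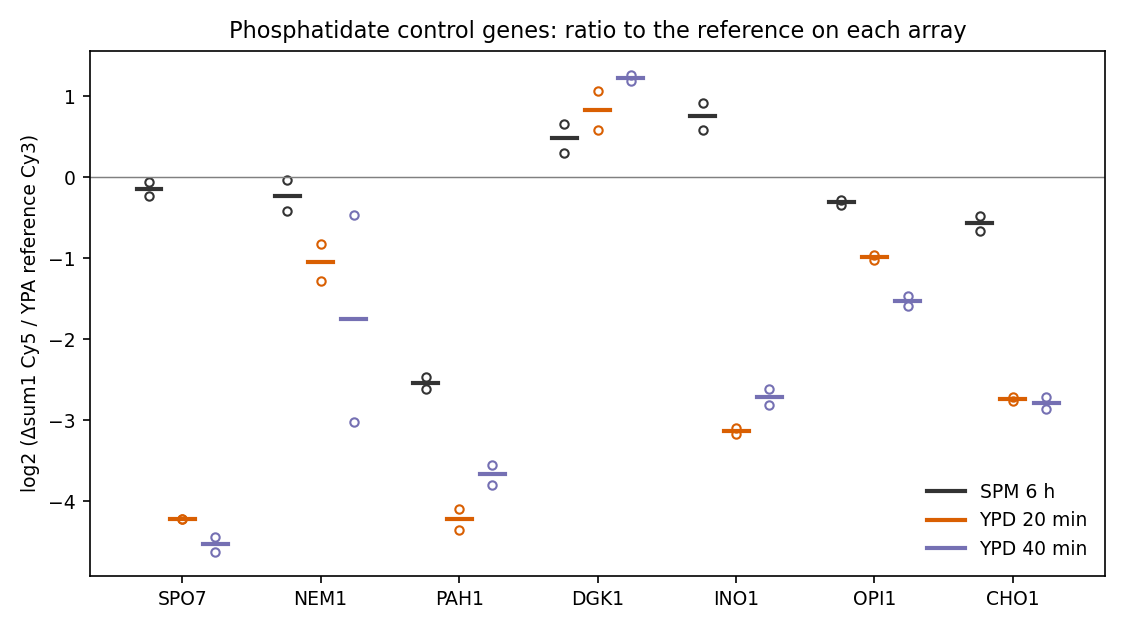
Log2 ratio of the Δsum1 sample to the YPA reference for the 7 genes on the 3 arrays; open circles are the 2 spots of a gene and bars their mean. SPO7, INO1 and CHO1 drop from near the reference at 6 hours to values between -2.72 and -4.53 in YPD, PAH1 is already at -2.54 before the transfer, and the spots of NEM1 at 40 minutes lie far apart.

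NEM1, the catalytic partner of Spo7, did not show a fall of that size. Because SPO7 was chosen for the size of its fall, this difference was largely settled beforehand. The log2 ratio of NEM1 was -0.23 ± 0.27 in SPM, then -1.05 ± 0.33 and -1.75 ± 1.81 after 20 and 40 minutes in YPD. The change was -0.83 ± 0.60 at 20 minutes, larger than its spot SD but with the spots at -0.41 and -1.25. At 40 minutes the change of -1.52 ± 2.08 is smaller than its SD, because the first spot gave -0.05 and the second -2.99. The second spot had a Cy5 intensity of 988 over a local background of 773, which leaves 215, under the floor, and the scanner software marked it for low signal-to-noise. No firm direction can be given for NEM1 at 40 minutes. At 20 minutes, where neither spot was under the floor, both spots changed less than those of SPO7, which gave -3.98 and -4.15. The first NEM1 spot at 6 hours carried the same mark for low signal-to-noise, over a local background of 1333, and it enters both changes.

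PAH1, the phosphatidate phosphatase that the Nem1-Spo7 complex activates, was low in Δsum1 cells before the transfer and lower after it. Its log2 ratio was -2.54 ± 0.11 in SPM, then -4.22 ± 0.18 and -3.67 ± 0.18 in YPD. It was the only one of the 7 genes lying 2-fold or more below the reference at 6 hours, where 18.0% of all genes were, and none of the 7 lay 2-fold above it, where 21.7% were. The change was -1.68 ± 0.29 (3.21-fold lower) at 20 minutes and -1.13 ± 0.06 (2.19-fold lower) at 40 minutes. The Δsum1 signal behind these values was 2015 in SPM, then 429 and 388 in YPD. In YPD it was about as bright as the median buffer spot, at 460 and 438, and 1 of its spots at 20 minutes was under the floor. Without that spot the change at 20 minutes was -1.60. With the buffer mean as the floor the changes were -0.68 and -0.13, and the fall at 40 minutes reached 2-fold in 5 of 10 other settings.

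DGK1, the diacylglycerol kinase that opposes Pah1, was the only one of the 7 with a higher ratio in YPD. From 0.48 ± 0.25 in SPM the log2 ratio went to 0.83 ± 0.34 and 1.23 ± 0.05 in YPD. Both spots were higher at both times, but the changes of 0.34 ± 0.09 and 0.74 ± 0.20 stayed under 2-fold, and with the buffer mean as the floor they were -0.23 and 0.07. Its Δsum1 signal, 7884 at 6 hours and 5708 at 40 minutes, was above that of at least 94.9% of buffer spots on every array.

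OPI1, the repressor that phosphatidate retains outside the nucleus, decreased by a modest amount. The log2 ratio was -0.31 ± 0.05 in SPM, then -0.99 ± 0.04 and -1.53 ± 0.09 in YPD. The change was -0.68 ± 0.09 at 20 minutes, under 2-fold, and -1.22 ± 0.04 at 40 minutes, or 2.33-fold lower. In Cy5 both OPI1 spots at 40 minutes, at 1051 and 1219, were under the buffer mean of 1236 but above 78.4% of buffer spots. At 20 minutes the Cy3 level of OPI1 differed from that at 6 hours while its Cy5 level hardly did, and the cause was not tested. The Cy3 level of OPI1, relative to the array median, was 0.49 at 6 hours and 1.10 at 20 minutes, while its Cy5 level was -0.01 and 0.05. Read from Cy5 alone the changes of OPI1 were 0.06 and -0.50. NEM1 behaved alike at 20 minutes, with a Cy3 level of -0.02 and then 0.67 and a Cy5 level of -0.44 on both arrays.

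INO1, which encodes inositol-3-phosphate synthase and is the classical target of Ino2, Ino4 and Opi1, fell nearly as far as SPO7 at 20 minutes, from a higher ratio. In SPM its log2 ratio was 0.75 ± 0.23, and in YPD -3.14 ± 0.06 and then -2.72 ± 0.14. The ratio in SPM was the highest of the 7 at 6 hours. The change was -3.89 ± 0.29 at 20 minutes and -3.47 ± 0.09 at 40 minutes, the 51st most negative mean change of the 6161. The Δsum1 signal went from 36819 to 1968 and 1612. At 20 minutes the spots of INO1 and SPO7 gave overlapping changes, of -3.68 and -4.09 for INO1 against -3.98 and -4.15 for SPO7. At 40 minutes the ratio of INO1 was 0.42 ± 0.20 higher than at 20 minutes, whereas that of SPO7 was lower. Relative to the array median, the Cy5 level of both genes rose between these times. It went from -0.49 to -0.01 for INO1 and from -0.98 to -0.68 for SPO7. The Cy3 level was 2.70 and then 2.67 for INO1, and 3.30 and then 3.82 for SPO7.

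CHO1, the phosphatidylserine synthase and a second Ino2 and Ino4 target, fell to a lesser extent and held its level. The log2 ratio of CHO1 was -0.57 ± 0.13 in SPM, -2.74 ± 0.03 after 20 minutes in YPD and -2.79 ± 0.10 after 40 minutes. The changes were -2.17 ± 0.10 (4.51-fold lower) and -2.22 ± 0.23 (4.66-fold lower). In Cy5 1 CHO1 spot at 40 minutes, at 1212, was under the buffer mean of 1236 but above 80.9% of buffer spots. The 2 arrays from YPD differ by -0.05 ± 0.13, less than the spread between spots.

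**Figure D2:**
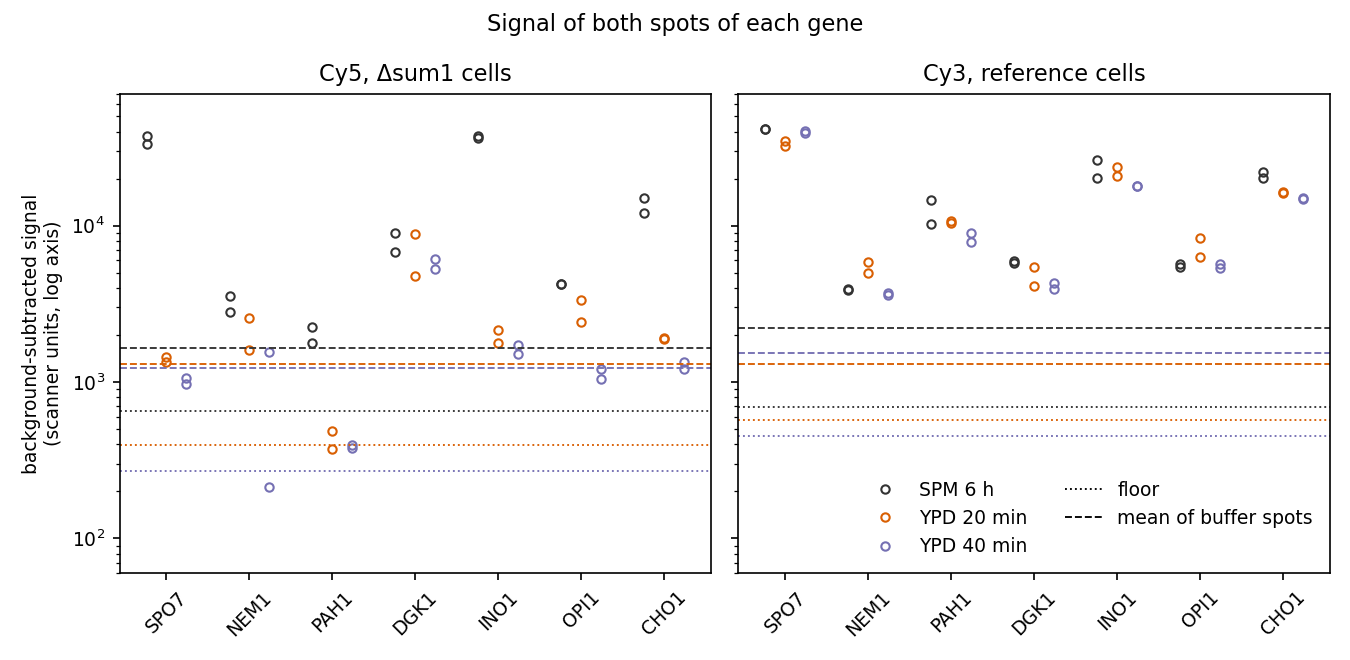
Background-subtracted signal of both spots of each gene on a log axis, for the Δsum1 sample (Cy5, left) and the reference (Cy3, right), with the floor of each array dotted and the mean of its buffer spots dashed. The Δsum1 signals of SPO7 and INO1 drop from means of 35469 and 36819 to means between 1012 and 1968, while their reference signals change far less. The Δsum1 signal of PAH1 comes down to the floor at 20 minutes.

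Set against all genes, the 7 lay mostly on the low side. At 20 minutes 4 of the 7 were lower by at least 2-fold, where 26.3% of all genes were, and at 40 minutes 6 of 7, where 30.5% were. None was higher by 2-fold, against 19.4% and 19.6% of genes. SPO7 is counted here though it chose the list, and NEM1 at 40 minutes rests on 1 spot. In SPO7, PAH1, INO1 and CHO1, 4 of the 7, both spots were lower by at least 2-fold at both times, as for 19.9% of all genes. The median change of the 7 was -1.68 and -1.52, against -0.26 and -0.33 over all genes. With 7 genes the median is the value of a single gene. At 20 minutes it is that of PAH1, with 1 spot under the floor, and at 40 minutes that of NEM1, whose direction is not firm. Between 20 and 40 minutes none of the 7 moved by 2-fold in either direction, as 3.31% of genes did downward and 1.82% upward.

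**Figure D3:**
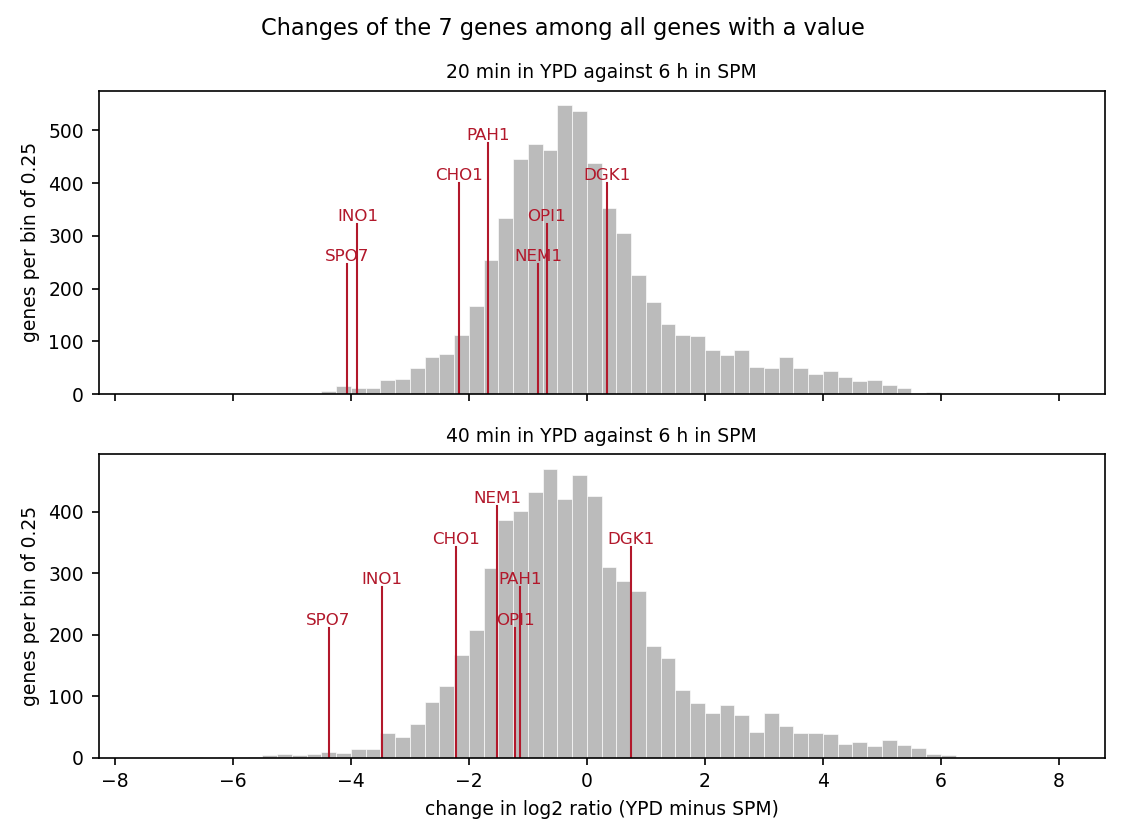
Number of genes in each bin of 0.25 of the change in log2 ratio at 20 (top) and 40 minutes (bottom), over 6161 genes, with the 7 genes as red lines whose height carries no meaning. SPO7 and INO1 sit in the thin lower tail, CHO1 at its shoulder, and NEM1, OPI1 and DGK1 within the bulk.

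The reference RNA was the same on all 3 arrays, so its Cy3 signal describes one technical part of the spread between slides. After centring on each array's median, the Cy3 level of a gene ranged over 0.38 on the log2 scale in the median gene. The range was 0.06 for PAH1, 0.11 for DGK1, 0.16 for INO1 and 0.17 for CHO1, and larger than that of most genes for SPO7 at 0.52, OPI1 at 0.60 and NEM1 at 0.68. The changes of NEM1 and OPI1 at 20 minutes, -0.83 and -0.68, compare with these last values. What other differences between slides add was not measured. Read from Cy5 alone, SPO7 changed by -4.02 and -3.73, INO1 by -3.59 and -3.11 and CHO1 by -2.20 and -2.00. The fall of SPO7 at 40 minutes was then 13.3-fold, under the 16-fold limit.

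**Figure D4:**
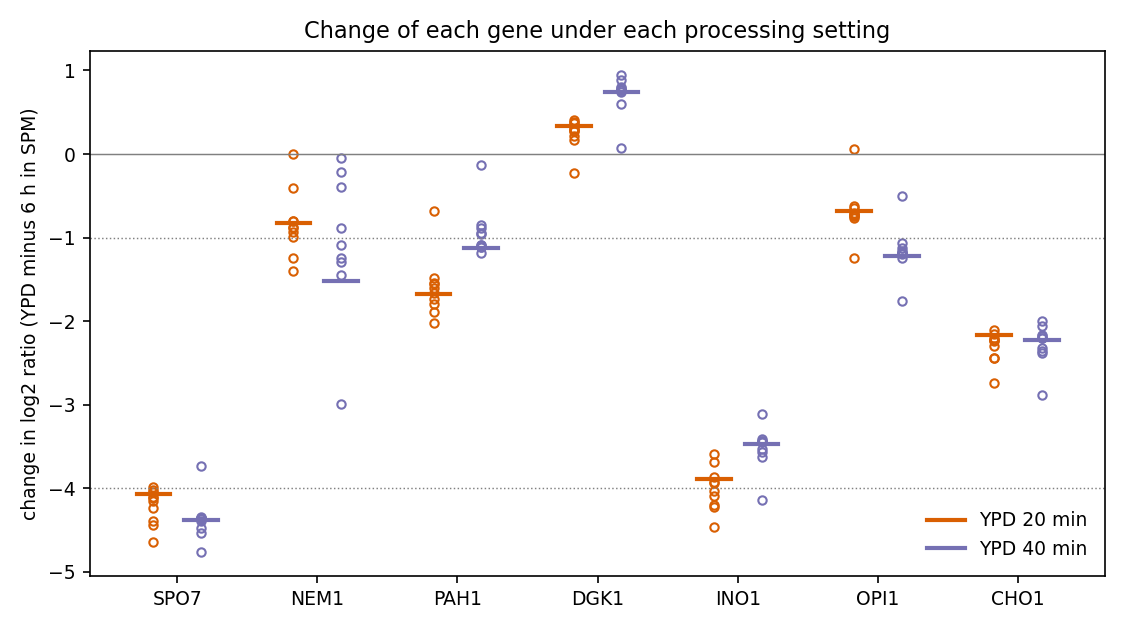
Change in log2 ratio of the 7 genes at 20 and 40 minutes, with the bar at the value reported and open circles at the values under the other processing settings; dotted lines mark 2-fold and 16-fold lower. SPO7 stays between -3.73 and -4.76 and INO1 between -3.11 and -4.46, whereas NEM1 at 40 minutes spreads from -0.05 to -2.99.

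No annotated gene overlaps any of the 7. FUN14, VPS35 and SNA3, which neighbour SPO7 or INO1, changed less than those genes did. SPO7 was chosen for the size of its fall, and INO1 was among the genes with the most negative changes. This comparison was therefore largely settled beforehand. Next to SPO7, MDM10, a mitochondrial outer membrane protein gene, changed by -1.22 and -1.47, values limited by the floor, under which all of its Cy5 spots in YPD lay, and FUN14 changed by -0.85 and -1.50. On either side of INO1, VPS35 changed by -1.41 and -1.71 and SNA3 by -1.30 and -1.26. DGK1 lies between NOP58, a ribosome biogenesis gene that rose by 4.83 and 5.59, and RPL20B, a ribosomal protein gene that rose by 3.49 and 4.45. AIM17, beside OPI1, fell further than OPI1, with changes of -2.82 and -3.06.

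The genes whose 3 log2 ratios lay nearest to those of SPO7 were sought among 5304 genes with every spot above both floors. NEM1 and PAH1, each with a Cy5 spot under the floor, could not be ranked. The nearest to SPO7 were FOX2 at a Euclidean distance of 0.16, PGM2 at 0.35, FUM1 at 0.36, AYR1 at 0.36 and SPG4 at 0.37. FOX2 encodes an enzyme of peroxisomal fatty acid oxidation, PGM2 a phosphoglucomutase and FUM1 fumarase. AYR1 belongs to the list of phosphatidate synthesis described below. FOX2 had log2 ratios of -0.02, -4.16 and -4.46 and changed by -4.14 and -4.44. Those near INO1 were farther off, among them PXA1 at 0.51, RPT4 at 0.53, ARE2 at 0.59 and DSK2 at 0.66. PXA1 encodes a subunit of the peroxisomal fatty acid transporter and ARE2 a sterol acyltransferase. With 3 arrays such a likeness is a description over 3 points.

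In 8 lists of other lipid genes, drawn from knowledge of the pathways, 89 genes were measured. Of these 26 were lower and 5 higher by at least 2-fold at 20 minutes, and 37 were lower and 9 higher at 40 minutes. That is 29.2% and 41.6% lower against 26.3% and 30.5% of all genes, and 5.6% and 10.1% higher against 19.4% and 19.6%, and no test of these differences was made. Their median change was -0.43 and -0.66. None of the 89 fell as far as SPO7 at either time, but SPO7 was chosen for the size of its fall, so this comparison was largely settled beforehand.

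The list counts that follow are to be read against the shares of all genes just given. The list with the most genes lower held the enzymes of phosphatidate and triacylglycerol synthesis together with other phosphatidate phosphatases and the sterol acyltransferases, 7 of 14 at 20 minutes and 9 of 14 at 40 minutes, with 0 and 2 higher and a median of -1.16 and -1.23. AYR1, the reductase for the acyl dihydroxyacetone phosphate route to phosphatidate and also a lipid droplet protein, had log2 ratios of -0.51, -4.24 and -4.48. Its change of -3.73 ± 0.02 and -3.97 ± 0.03 was the most negative of the 89. ARE2 had log2 ratios of 0.18, -3.28 and -2.70, and changed by -3.46 ± 0.16 and -2.88 ± 0.04. Both genes thus went from close to the reference to well below it, as SPO7 did. Among lipases and lipid droplet proteins 4 of 13 were lower at 20 minutes and 6 of 13 at 40 minutes, AYR1 counted again, with 0 and 1 higher. TGL1, the steryl ester hydrolase, changed by -1.75 ± 0.21 and -2.58 ± 0.60.

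Downstream of CHO1, in the route from phosphatidylserine to phosphatidylcholine with the CDP-diacylglycerol and inositol enzymes, 4 of 11 genes were lower and 2 higher at 20 minutes, and 5 lower and 3 higher at 40 minutes, with a median of -0.41 and -0.88. The only one of these past 4-fold was INM1, an inositol monophosphatase that acts on the product of Ino1. It rose while INO1 fell, with log2 ratios of 0.20, 3.48 and 3.51 and a change of 3.28 ± 0.07 and 3.31 ± 0.26. INM2, another inositol monophosphatase gene of this list, was lower instead, with changes of -1.12 ± 0.03 and -1.09 ± 0.01. INM2 was named for its role and not by the rule for named genes. In the choline and ethanolamine branch and uptake list 2 of 10 were lower at 20 minutes and 3 of 10 at 40 minutes, with none higher. EKI1, an ethanolamine kinase, changed by -0.81 ± 1.09 and -2.08 ± 1.39, with spots too far apart to place it.

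The regulators around Opi1, Ino2 and Ino4 moved little, with 1 of 11 lower at 20 minutes and 2 of 11 at 40 minutes, none higher, none past 4-fold and a median of -0.14 and -0.32. Of the activators themselves, INO2 changed by 0.51 ± 0.09 and then 0.42 ± 0.46, and INO4 by -0.46 ± 0.13 and then -1.21 ± 0.02, which is 2.32-fold lower at 40 minutes. The pair were picked for their role and not by the rule for named genes. Genes that shape the nuclear envelope and the endoplasmic reticulum had 2 of 12 lower and 2 higher at 20 minutes and 3 lower and 2 higher at 40 minutes, with none past 4-fold and a median of -0.16 and 0.24. Among phospholipases 2 of 8 were lower at 20 minutes and 4 of 8 at 40 minutes, with none higher, and the first of these is close to the share of all genes. SPO1, a sporulation gene related to phospholipase B, had a log2 ratio of 2.29 at 6 hours and changed by -2.57 ± 0.11 and -3.04 ± 0.22. Of the phosphoinositide kinases and phosphatases 5 of 11 were lower and 1 higher at 20 minutes, and 6 lower and 1 higher at 40 minutes. SAC1, the phosphoinositide phosphatase of the endoplasmic reticulum, was the one that rose, from a log2 ratio of -2.35 at 6 hours, by 2.72 ± 0.27 and 2.83 ± 0.10. INP54, a phosphatidylinositol bisphosphate phosphatase, gave -1.95 ± 0.13 and -2.58 ± 0.05 with every Cy5 spot in YPD under the floor.

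**Figure D5:**
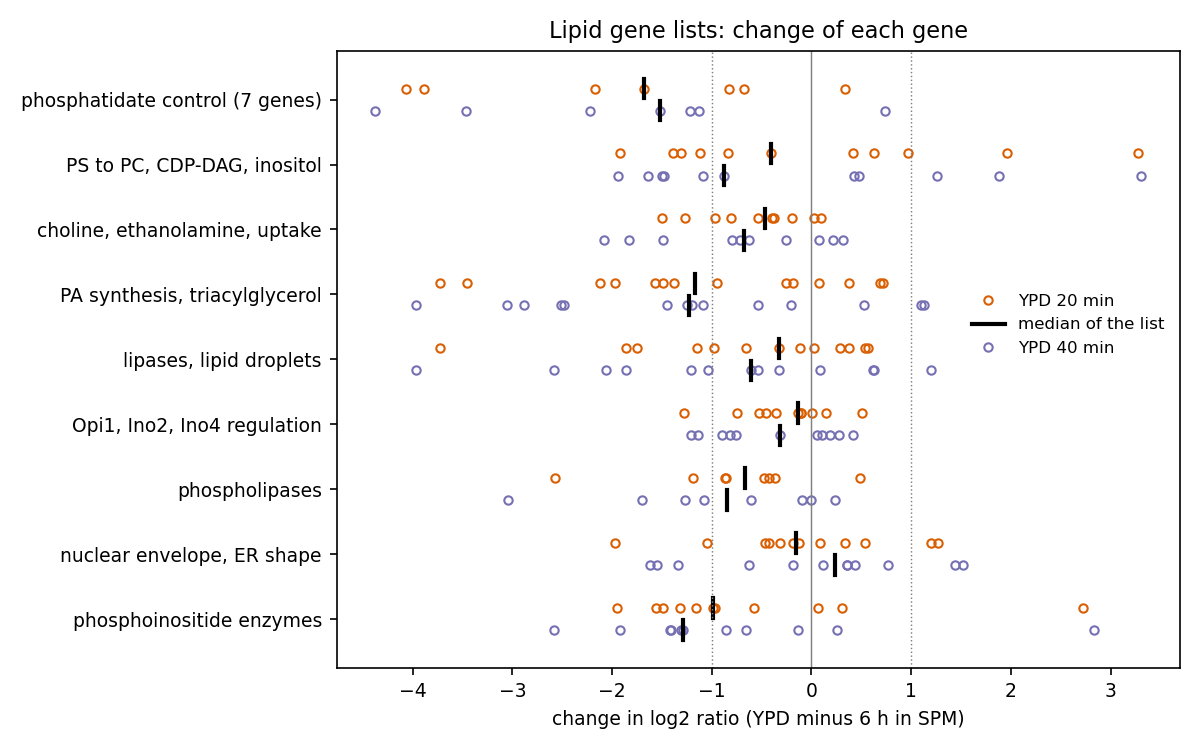
Change in log2 ratio at 20 and 40 minutes for each gene of the 7 and of the 8 lipid lists; circles are genes, black bars the median of a list, and dotted lines 2-fold. SPO7, chosen for the size of its fall, is the leftmost gene at both times. AYR1 is the leftmost in 2 of the other lists, and INM1 and SAC1 are the genes farthest to the right.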

How the data were processed

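The arrays were spotted with PCR products and scanned in 2 colors. The deposited scanner files hold for each of 13056 spots an intensity and its local background in each channel, from QuantArray and before any subtraction. The log2 ratios that the authors deposited besides were made by subtracting background, applying a floor, centring on the array median, dropping bad spots and averaging the rest. Here local background was subtracted, lower signals were raised to the floor, and log2 of Cy5 over Cy3 was centred on the median over the 12436 gene spots, and the 2 spots of a gene were averaged, with no spot omitted. Changes are YPD minus SPM.

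The methods name the mean of the buffer spots as the floor. The deposited ratios carry lower floors, of 656, 397 and 268 in Cy5 and 690.0, 574 and 455 in Cy3, which were recovered from them and used, with the buffer mean as an alternative. After removal of a constant offset per array, 97.9%, 98.4% and 98.1% of 5496, 5494 and 5469 genes equalled the authors' value within 0.001. No change was computed for 57 genes whose spots were all under both floors throughout. The median gene signal ran from 1616 to 4280 over the arrays in Cy5 and from 2811 to 3939 in Cy3. Precision is limited by having 3 arrays.

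No test was made, since no group has a repeat. Genes were named through the RefSeq annotation of the R64 assembly, which matched 5663 of the 6218 array genes. The arrays name no genome build, so no coordinates are given, and promoter and protein sequences were not used here. The 7 genes, the lists and the limits were chosen with earlier results of these data known. Named were the 7 genes, SUM1, the genes of each list past 4-fold at either time, up to 2 in each direction, and the 5 genes nearest to SPO7 and to INO1, of which 1 is not reported here. The scripts were tested on simulated data with known floors and changes. Software was Python 3.11.15, numpy 2.4.6, pandas 2.3.3, R 4.3.3 and limma 3.58.1.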

Additional observations from a re-analysis of the deposited data

How the results depend on the processing

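The values were recomputed with the buffer mean as the floor, normexp (offset 50), loess, the pair together, without spots under the floor, from Cy5 alone, from the authors' deposited ratios, from the first or the second spot only, and without spots of low signal-to-noise, and counts also at 1.5-fold. A log2 value was counted as moved when it shifted by more than the pooled SD of duplicate spots (0.23 and 0.24 for changes, 0.15 for ratios at 6 hours), and a count of genes when it differed by over 1.5 times. SPO7's own SD of 0.12 and 0.01 is smaller and would count more. By these measures 233 of 292 values stayed and 59 moved, 52 of them among the 202 values of single genes of the 7. SPO7 remained lower by at least 16-fold in 9 of 10 alternatives at each time. At 20 minutes it was -4.64 with the buffer mean as the floor, -4.39 with loess and -4.44 with normexp and loess, and at 40 minutes -4.76 with the buffer mean and -3.73 from Cy5 alone. INO1 passed 16-fold in 5 of 10 alternatives at 20 minutes and 1 of 10 at 40 minutes. The genes of the 7 lower by 2-fold at 40 minutes, 6 as reported, were 3 from Cy5 alone and 5 in 8 other alternatives. Lipid list genes higher at 20 minutes were 3 with the buffer mean, 8 from Cy5 alone and 9 at 1.5-fold, and at 40 minutes 3 with the buffer mean. The buffer mean also moved the median change of all genes to -0.51 and -0.50, and Cy5 alone to -0.15 and -0.06. NEM1 at 40 minutes has no deposited value, so it has 1 alternative fewer. The cause of these shifts was not tested. No paired analysis was possible because each group has 1 array. The authors omitted some spots in part by visual inspection, which was not repeated.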
